A study of Apis mellifera ligustica with 12 samples.

Results

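The comparison described here is of honeybee (Apis mellifera ligustica) brain miRNAs at day 30 (D30) against day 10 (D10) of fluvalinate exposure, across 3 libraries of each day out of 12 small RNA libraries in the study. Fluvalinate is a pyrethroid acaricide that beekeepers hang in the hive against Varroa mites. Both groups were treated: their colonies received 1 strip holding 40 mg of fluvalinate every 7 days, and returning foragers were taken on day 10 or day 30 after the first strip. Each library was made from 20 worker brains of 1 colony, pooled after the royal jelly glands and the pigments had been removed. The study's methods have bees taken from every colony at each sampling time, so the libraries of both days may come from the same colonies. The labels do not say which colony gave which library, and the main test treated the libraries as independent. The series holds no untreated library labelled with day 10 or day 30, so longer exposure and the later sampling date cannot be told apart. The other libraries are 3 from untreated bees (CK) and 3 from day 20 (D20), and they appear below only as a description.

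Members were the listed miRNAs that are either known in the honeybee (180) or predicted by the study from hairpins in the genome (246). Of these 426, 12 had 0 counts in the 6 libraries, 49 had 1 to 9 counts, and the 365 with at least 10 counts in all were tested, 166 known and 199 predicted. The other 924 of the 1350 listed entries carry names from other species and were left out. Of the 365 tested miRNAs, 269 were counted in each of the 6 libraries, 105 had at least 1000 counts and 172 had under 100. For 18 of them the filter was passed with at least 10 counts in 1 group and under 5 in the other, so that they had to differ.

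A miRNA is a short RNA of about the length of the strings printed below. It guides an Argonaute protein to messenger RNAs that pair with its seed, the bases near its 5′ end, and lowers the protein made from them. A hairpin precursor can give a mature miRNA from its 5′ arm (5p) and from its 3′ arm (3p), and hairpins that lie close together in the genome are often transcribed as 1 primary transcript. In insect brains some miRNAs are neuronal, some act in sense organs, and some are known mainly from the gut, fat body or neurosecretory cells.

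The sequences below are those of the miRNAs on which the comparison turns and of the relatives they are set against, as the deposited files give them (DNA letters, 5′ to 3′), with the seed, bases 2 to 8, in capitals. The first set holds 8 miRNAs that were higher at D30, 7 of them in each D30 library over each D10 library. Over all 365 tested, this held for 34 (9.32%). The 8 were picked by these same values, so the count is no trait of the set. Their seeds all differ, so the set is not 1 seed family.
m0088-5p: tGACTGCCaagtttgccgctct
miR-14-3p: tCAGTCTTtttctctctccta
miR-932-5p: tCAATTCCgtagtgcattgcag
miR-6039-5p: aATCGAACgcgtgagtttacgt
m0007-3p: gTAGACACacgtgttggacctt
miR-6041-3p: aAATATCAtcgagatcgaagga
miR-193-3p: tACTGGCCtgctaagtcccaa
m0131-3p: tAACAAGGaatcactaatcatc
The second set holds 9 miRNAs that were lower at D30, shown because the library D10-2 bears on most of them, miR-9a-5p being an exception.
miR-316-5p: tGTCTTTTtccgctttgctgccg
miR-281-3p: tGTCATGGagttgctctctttgt
miR-219-5p: tGATTGTCcaaacgcaattcttg
miR-980-3p: aAGCTGCCttttgaagggcaaca
miR-282-5p: gATTTAGCctctcctaggctttgtctgt
miR-305-5p: aTTGTACTtcatcaggtgctctg
miR-375-3p: tTTGTTCGttcggctcgagtta
miR-9a-5p: tCTTTGGTtatctagctgtatga
miR-3477-5p: tAATCTCAtgcggtaactgtgag
The third set shows 3 pairs with 1 seed each whose members differ outside the seed and had unlike values in these libraries. The pairs are miR-275-3p with miR-306-5p, miR-279a-3p with miR-996-3p, and miR-283-5p with the miR-6041-3p already shown.
miR-275-3p: tCAGGTACctgaagtagcgcgcg
miR-306-5p: tCAGGTACtgagtgactctgag
miR-279a-3p: tGACTAGAtccacactcattaa
miR-996-3p: tGACTAGAtacatactcgtct
miR-283-5p: aAATATCAgctggtaattct

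Each of the 6 libraries held 10054711 to 15979901 counts of listed miRNAs. A floor of 3 counts, set for a count of 0, corresponds to 0.203 to 0.298 CPM on the normalized scale of the tested miRNAs. The smallest count above 0 was 2, since the study dropped tags seen only once. A count of 0 can therefore hide single reads, and the floor may be too low. CPM is the count divided by the library's total and scaled to a common size. All levels below are CPM normalized by the TMM method over the 6 libraries, and a log2 fold change is D30 minus D10 with its standard error (SE). Known honeybee miRNAs took 96.6% to 97.5% of the counts and predicted ones 0.118% to 0.134%. The 6 brain markers listed (miR-124, miR-137, miR-1000, miR-932, miR-184 and miR-276) summed to between 410402 and 479425 CPM. Most of this sum was miR-276-3p and miR-184-3p, at means of 235074 and 179052 CPM. The least abundant, miR-1000-5p, had a mean of 20.9 CPM, below both muscle markers. Muscle markers (miR-1 and miR-133, 2 of 2 detected) summed to between 3445 and 4308 CPM at D10 and between 3364 and 5799 CPM at D30. The Hox cluster miRNAs of the trunk (3 of 3, with iab-4-5p at 54 counts in all and at 0 in D10-1) summed to 2088 to 2173 CPM at D10 and 1399 to 2034 CPM at D30. Their part in any result was not tested.

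The library D10-2 stood apart from the other 5. Over the 105 miRNAs with at least 1000 counts, it was more than 2-fold above the median of the other 5 libraries for 16 and more than 2-fold below for 2 (17.1%), against 0.952% to 6.67% in the other libraries. The correlation of log2 CPM over these 105 miRNAs was 0.954 to 0.973 for the 5 pairs with D10-2 and 0.986 to 0.997 for the 10 pairs without it, which describes the libraries and is no test. For each miRNA lower at D30 with a p under 0.05, the value without D10-2 is therefore also given. The next library in this order was D30-1, with 4 miRNAs more than 2-fold above and 3 more than 2-fold below the others.

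**Figure D1:**
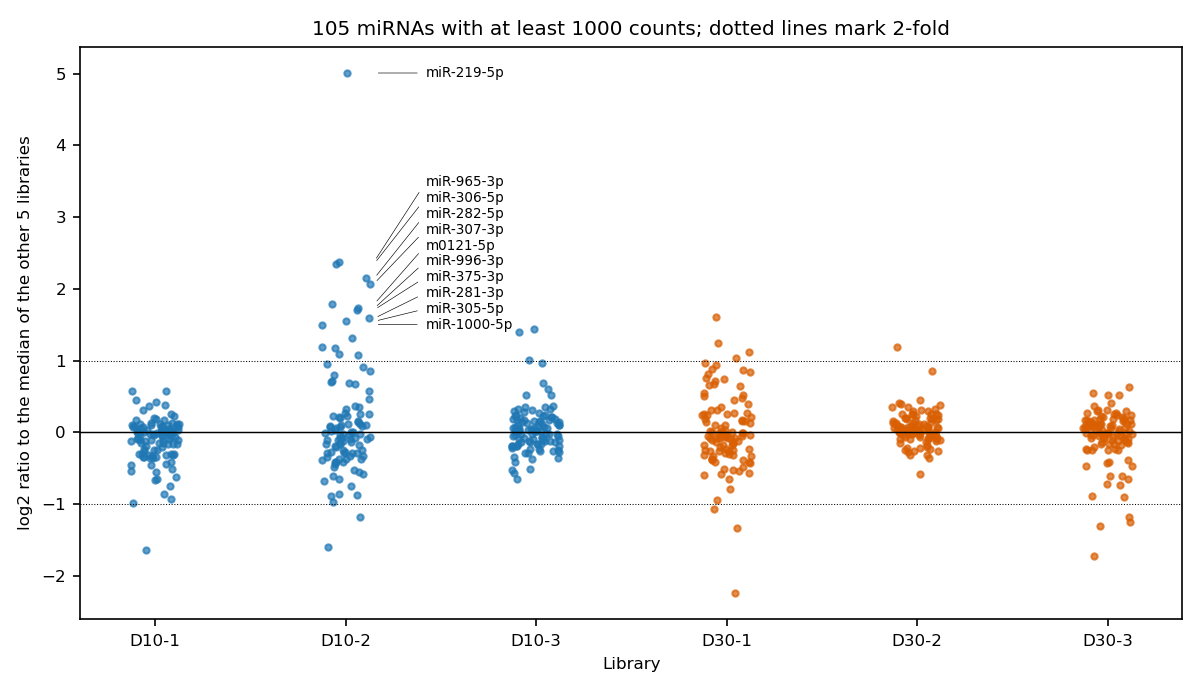
Log2 ratio of each of the 105 miRNAs with at least 1000 counts (points) to the median of the other 5 libraries, for each library; D10 in blue, D30 in orange, dotted lines at 2-fold, points spread sideways only to separate them. D10-2 has 16 points above the upper line, led by miR-219-5p at 5.01, and 2 below the lower line; the other libraries have 1 to 7 outside the lines.

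No miRNA passed an adjusted p of 0.05 between D30 and D10 (0 of 365, 0%; edgeR's quasi-likelihood test, smallest adjusted p = 0.586). An unadjusted p under 0.05 was reached by 30 miRNAs, 8.22% of those tested, of which 18 (4.93%) were higher and 12 (3.29%) lower at D30. Adjusted counts were also 0 with DESeq2 (23 miRNAs under an unadjusted p of 0.05), limma-voom (24) and edgeR's classic exact test (27). They were not 0 when equal replicate numbers were taken as blocks in edgeR's quasi-likelihood test. There miR-980-3p (adjusted p = 0.000185), miR-375-3p (0.000624), m0088-5p (0.00231) and miR-281-3p (0.0459) passed. The labels do not say whether equal numbers are the same colony. Of the 166 known miRNAs tested, 8 were higher and 11 lower among the 30, and of the 199 predicted ones, 10 were higher and 1 lower. Some predicted ones had no count in most D10 libraries and passed the filter through D30, so nothing is read from this split. The CPM ranges of the groups did not overlap for 54 miRNAs (14.8%), D30 lying above for 34 (9.32%) and below for 20 (5.48%). With 3 libraries against 3, an exact permutation test of a single miRNA cannot go below p = 0.1. All p-values measure the spread between these pooled libraries.

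The split between higher and lower depended on the scaling. The median log2 fold change of all 365 was 0.13 with TMM, 0.04 with DESeq2's size factors (RLE), -0.10 with upper quartile scaling and 0.09 with library size alone. In the same order, the miRNAs with an unadjusted p below the threshold numbered 30 (18 higher, 12 lower), 28 (10 higher, 18 lower), 34 (3 higher, 31 lower) and 29 (15 higher, 14 lower). The 30 of the TMM fit kept their sign under each of these scalings. With TMM, 59.2% of the 365 had a log2 fold change above 0, and the median was 0.03 for known and 0.19 for predicted miRNAs.

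**Figure D2:**
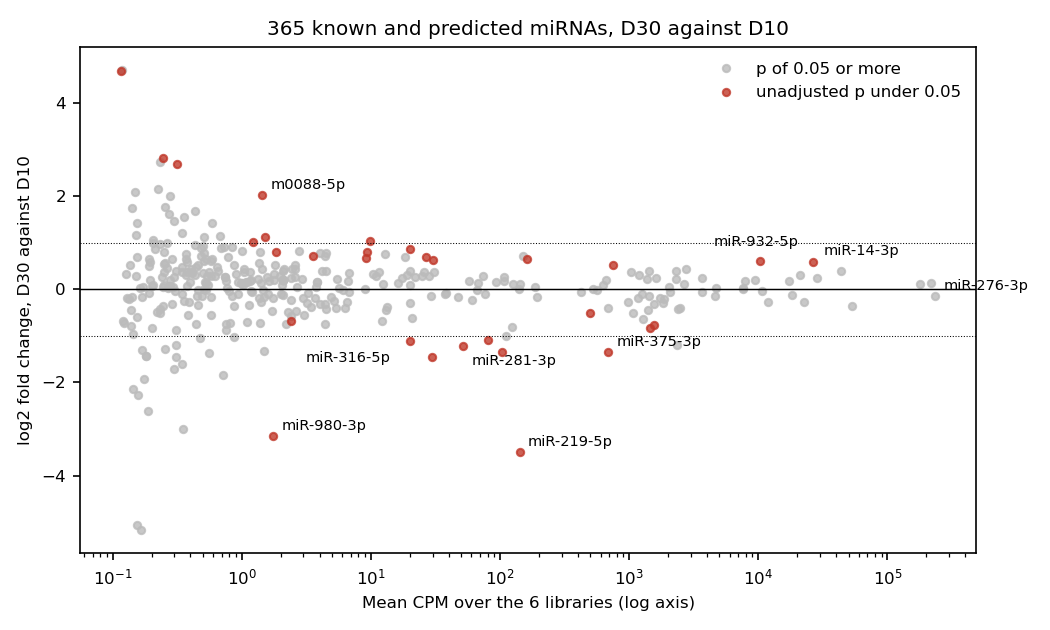
Log2 fold change of D30 against D10 (vertical axis) by mean CPM over the 6 libraries (horizontal log axis) for the 365 miRNAs; red points have an unadjusted p under 0.05 and dotted lines mark a log2 fold change of 1 in either direction. Many wide fold changes lie at levels near the floor of a few counts, but miR-219-5p (-3.50) lies far above the floor, its value resting on D10-2. The named abundant miRNAs miR-14-3p (0.59) and miR-932-5p (0.61) lie between the zero line and the upper dotted line.

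None of the 5 most abundant miRNAs of these brains had an unadjusted p under 0.05. The 5 of highest mean level were miR-276-3p, miR-2796-3p, miR-184-3p, miR-981-3p and miR-317-3p. For miR-276-3p, which acts in olfactory learning in the fly, the log2 fold change was -0.15 ± 0.14 (SE), with a 95% interval of -0.47 to 0.17. Its levels were 256904, 221302 and 263471 CPM at D10 and 204059, 239048 and 225659 CPM at D30, and the groups overlapped. The log2 fold changes of the next 4 were 0.14 for miR-2796-3p, 0.11 for miR-184-3p, -0.36 for miR-981-3p and 0.40 for miR-317-3p, and those of miR-2796-3p and miR-184-3p were negative under upper quartile scaling (-0.10 and -0.09). With 1 library left out, miR-981-3p ranged from -0.62 (without D10-3, unadjusted p = 0.0339; edgeR) to -0.045 (without D10-2), and miR-317-3p was at 0.24 without D10-2. Without D30-1, miR-2796-3p was at -0.036 and miR-276-3p at -0.09, and miR-184-3p was at -0.063 without D10-3.

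Abundant miRNAs higher at D30 with an unadjusted p under 0.05 (edgeR's quasi-likelihood test) included miR-14-3p, miR-932-5p and miR-6039-5p, though the groups of miR-932-5p overlapped. In the fly, miR-14 restrains cell death and acts in the insulin-producing neurosecretory cells of the brain to control metabolism. Its 3p arm was at 21409, 16413 and 25439.8 CPM at D10 and at 40101, 26286 and 29044 CPM at D30. Each D30 library lay above each D10 library, D10-2 being the lowest and D30-1 the highest. The log2 fold change was 0.59 ± 0.22 (unadjusted p = 0.0254, adjusted p = 0.586 by edgeR's quasi-likelihood test), with a 95% interval of 0.09 to 1.096. It was 0.44 without D10-2 and 0.39 without D30-1 (unadjusted p = 0.105; edgeR). The hairpin lies on linkage group 11 (2869218 to 2869317, Amel_HAv3.1) outside any other gene of the RefSeq table.

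miR-932 has been tied to long-term memory in the honeybee. The 5p arm was at 9375, 6522 and 8375 CPM at D10 and at 17803, 9113 and 10254 CPM at D30. The D30-1 library was the highest by far, and D30-2 lay below D10-1, so that the groups overlapped. The log2 fold change was 0.61 ± 0.27 (unadjusted p = 0.0479, edgeR's quasi-likelihood test over all miRNAs), and leaving out 1 library at a time it ranged from 0.26 to 0.79, the lowest without D30-1. Its hairpin lies on linkage group 1 (24906936 to 24907035) within the span of LOC410779, a protein-coding gene; the table gives no strand.

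miR-6039-5p was at 594, 649 and 614 CPM at D10 and at 855, 795 and 1002 CPM at D30. The 3 values of each day lay close together and apart from those of the other day. Its log2 fold change was 0.51 ± 0.19 (unadjusted p = 0.0249, edgeR) and ranged from 0.40 to 0.58 when 1 library at a time was left out. The predicted miRNA m0007-3p is near-identical in sequence to an entry that the study lists as miR-6039-y, which had only 2 counts in the 6 libraries. m0007-3p was at 25.9, 19.2 and 26.8 CPM at D10 and at 39.5, 32.2 and 39.4 CPM at D30, a log2 fold change of 0.63 ± 0.24 with no overlap. Whether m0007-3p and miR-6039-5p come from 1 hairpin was not tested.

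Several miRNAs known from the honeybee and of lower level followed the same direction. miR-6044-5p was at 7.95, 6.07 and 6.36 CPM at D10 and at 15.002, 10.9 and 9.67 CPM at D30. miR-9882-5p was at 6.54, 6.79 and 7.76 CPM at D10 and at 9.53, 10.4 and 13.5 CPM at D30. Neither overlapped between the days, and their log2 fold changes were 0.80 ± 0.26 and 0.66 ± 0.24. miR-6041-3p was at 7.67, 3.60 and 8.25 CPM at D10 and at 9.83, 11.7 and 18.3 CPM at D30, again without overlap (1.03 ± 0.36). Its seed is shared by miR-283-5p, whose log2 fold change was of the other sign (-0.51 ± 0.27), and the difference between these 2 was not tested.

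miR-193-3p was at 10.4, 16.0 and 16.1 CPM at D10 and at 35.1, 20.7 and 21.4 CPM at D30, a log2 fold change of 0.86 ± 0.30 without overlap (0.57 without D30-1). The hairpin lies on linkage group 1 (1179500 to 1179618) in the span of LOC726912. Its neighbour in the same span, miR-2788-3p (1173496 to 1173602), had a log2 fold change of 0.29 ± 0.23. The values of both neighbours had the same sign, and only that of miR-193-3p had an unadjusted p under 0.05 (0.0182; edgeR).

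The predicted miRNA m0088-5p had the smallest p of the 365 (0.00208; edgeR's quasi-likelihood test, adjusted p = 0.586). It rests on few reads: 11, 4 and 6 counts at D10 and 47, 22 and 29 counts at D30. These are 0.774, 0.320 and 0.597 CPM at D10 and 3.47, 1.52 and 1.96 CPM at D30, so that each D30 library was above each D10 library. The log2 fold change was 2.01 ± 0.48 (95% interval 0.94 to 3.09), and 1.61 to 2.34 when 1 library at a time was left out. It had been counted in CK at 1.05 CPM ± 0.39 (SD, n = 3) and in D20 at 0.92 CPM ± 0.39 (SD, n = 3) on the scale of 12 libraries.

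The other predicted miRNAs in this group were also rare. m0178-5p was at 1.34 CPM ± 0.25 at D10 and 2.37 CPM ± 0.36 at D30 (SD, n = 3 each), a log2 fold change of 0.81 ± 0.32. m0131-3p was at 0.962 CPM ± 0.37 and 2.08 CPM ± 0.19 (SD, n = 3 each), a log2 fold change of 1.11 ± 0.38. For m0131-3p the reads are split with a near-identical entry named miR-7-y, and it holds 15.07% of their joint counts. Summed with that entry, its log2 fold change was 0.24 (unadjusted p = 0.296 in the same edgeR fit), an alternative chosen after seeing the data. Of the 10 predicted miRNAs that were higher with p under 0.05, m0193-3p, m0033-5p and m0139-3p had no count in 2 or more of the D10 libraries, and their folds depend on the prior count.

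**Figure D3:**
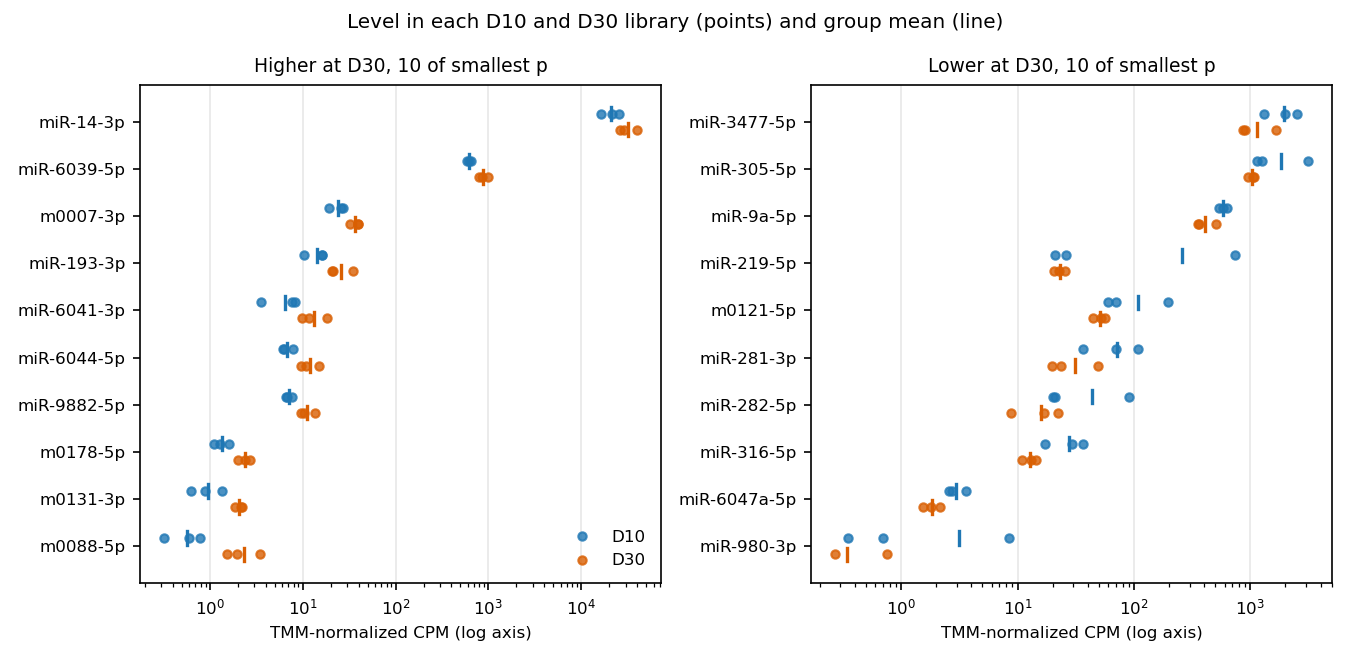
TMM-normalized CPM (log axis) in each D10 (blue) and D30 (orange) library for the 10 miRNAs of smallest p in each direction, with the group means as vertical lines; D30-1 had 0 counts of miR-980-3p and has no point there. On the left the colours are separate for all 10, which a choice by smallest p favours (D30 lay above for 34 of all 365, 9.32%). On the right 1 blue point, D10-2, lies far to the right of the others for miR-219-5p, miR-980-3p, miR-282-5p and m0121-5p.

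Among the 12 miRNAs lower at D30, miR-316-5p had the smallest p and did not rest on D10-2 alone. It was at 17.2, 36.3 and 29.1 CPM at D10 and at 12.9, 14.5 and 10.9 CPM at D30. All D30 libraries were below all D10 libraries, D10-1 being the nearest. The log2 fold change was -1.11 ± 0.31 (unadjusted p = 0.00528, adjusted p = 0.586; edgeR's quasi-likelihood test) and -0.86 without D10-2 (unadjusted p = 0.0115; edgeR). The study named miR-316-5p, like miR-281-3p, miR-375-3p and miR-3477-5p below, among its differentially expressed miRNAs on these same samples, so its direction here is not independent evidence. Those calls were between any of its sampling times, not D30 against D10 alone. The study also tested part of its calls by qRT-PCR and reported that all but miR-750-y matched its sequencing. The hairpin lies on linkage group 10 (3098807 to 3098892) outside any other gene of the table.

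miR-9a, which limits the number of sensory organ precursors in the fly by repressing senseless, was the other that kept an unadjusted p under 0.05 without D10-2. Its 5p arm was at 539, 585 and 623 CPM at D10 and at 362, 508 and 352 CPM at D30. The groups did not overlap, D30-2 being the nearest to D10. The log2 fold change was -0.52 ± 0.22 with and -0.51 without D10-2 (unadjusted p = 0.0429 and 0.0312; edgeR). miR-6047a-5p, at 2.60, 2.72 and 3.58 CPM at D10 and 2.14, 1.80 and 1.56 CPM at D30, had a log2 fold change of -0.69 ± 0.30 with and -0.74 without D10-2. The other arm of that hairpin, miR-6047a-3p, was more abundant and had a log2 fold change of -0.11 ± 0.25 with overlapping groups.

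The most abundant of the lower miRNAs was miR-3477-5p, which was at 1311, 2527 and 1998 CPM at D10 and at 872, 1674 and 897 CPM at D30. D30-2 lay above D10-1, so that the groups overlapped. The log2 fold change was -0.76 ± 0.32, and -0.53 without D10-2 (unadjusted p = 0.0948; edgeR) and -1.14 without D30-2. Its hairpin lies with those of miR-12 and miR-283 in the span of LOC411348 on linkage group 2 (4841409 to 4841507). The log2 fold changes of those neighbours, -0.43 ± 0.25 for miR-12-5p and -0.51 ± 0.27 for miR-283-5p, were of the same sign, also under each scaling tried, and D10-2 was the highest library for all 3. Without D10-2 miR-283-5p was at -0.18 (unadjusted p = 0.339; edgeR), and miR-12-5p ranged from -0.67 (without D30-2) to -0.24 (without D30-3) when 1 library was left out.

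miR-375, known from the insulin-secreting islet cells of vertebrates, and miR-281, known from the midgut of mosquitoes and the Malpighian tubules of the silkworm, were both spread widely within each day. miR-375-3p was at 426, 1393 and 1161 CPM at D10 and at 163, 770 and 233 CPM at D30. miR-281-3p was at 36.1, 109 and 70.7 CPM at D10 and at 23.6, 49.4 and 19.9 CPM at D30. In both, D10-1 lay below D30-2, and so the groups overlapped. Their log2 fold changes were -1.35 ± 0.60 and -1.22 ± 0.46 with D10-2, and -1.03 and -0.78 without it (unadjusted p = 0.096 and 0.0714; edgeR). Without D30-2, the highest D30 library for both, they were -2.33 and -1.72.

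For the remaining lower miRNAs the D10-2 library carried most or all of the difference. miR-219-5p, whose vertebrate counterpart acts in oligodendrocyte differentiation and in the circadian clock of the mouse, was at 26.2, 736 and 21.0 CPM at D10 and at 20.8, 25.5 and 22.7 CPM at D30. The value of D10-2 rests on 9206 counts, against 211 to 373 in the other 5 libraries. With it the log2 fold change was -3.50 ± 1.19, and without it -0.04 (unadjusted p = 0.876; edgeR). Its hairpin lies on linkage group 11 (46330 to 46431).

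miR-980-3p, a memory suppressor in the fly, had 5, 105 and 7 counts at D10 and 0, 11 and 4 counts at D30. The 105 counts are those of D10-2, and the log2 fold change of -3.15 ± 1.23 became -0.55 without that library (unadjusted p = 0.627; edgeR). miR-282-5p, which is needed for normal viability of the fly, was at 20.2, 89.8 and 21.2 CPM at D10 and at 16.8, 22.3 and 8.86 CPM at D30, with log2 fold changes of -1.45 ± 0.59 and -0.37. m0121-5p was at 59.8, 197 and 70.5 CPM at D10 and at 56.9, 51.9 and 44.9 CPM at D30, with -1.09 ± 0.43 and -0.35. The D10 libraries other than D10-2 lay within the range of D30 for miR-980-3p and miR-282-5p. For m0121-5p they lay above it, at 59.8 and 70.5 CPM against at most 56.9 CPM, so that its groups did not overlap.

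miR-305-5p, which balances stem cell renewal in the fly gut, was at 1134, 3143 and 1262 CPM at D10 and at 1076, 1060 and 955 CPM at D30. Its log2 fold change was -0.84 ± 0.36 with D10-2 and -0.22 without it, and each D30 library lay below each D10 library. miR-965-3p, active in the abdominal histoblasts of the fly, was at 60.1, 317 and 66.9 CPM at D10 and at 45.1, 68.1 and 60.9 CPM at D30, with log2 fold changes of -1.35 ± 0.59 and -0.13. The D10-2 value was the highest of the 6 for 10 of the 12 lower miRNAs. For the 18 higher ones D30-1 was the highest of the 6 for 11.

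Without D10-2, 21 miRNAs had an unadjusted p under 0.05, 18 of them higher and 3 lower at D30. Of the 18 higher and 12 lower of all 6 libraries, 12 and 2 kept a p under 0.05. The lower miRNA without D10-2 that was not among those 12 was miR-1-3p (-0.61, unadjusted p = 0.0106; edgeR). Without D30-1, the count was 12, with 7 higher and 5 lower.

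The 16 miRNAs more than 2-fold higher in D10-2 are a mixed set. Besides the 8 that were lower at D30 with p under 0.05 (miR-316-5p, miR-219-5p, miR-281-3p, miR-282-5p, miR-305-5p, miR-375-3p, miR-965-3p and m0121-5p), they are miR-306-5p, miR-307-3p, miR-996-3p, miR-1000-5p, miR-929-5p, miR-3719-3p, miR-6040-3p and bantam-3p. In 15 of the 16, D10-2 was the highest of all 12 libraries, CK and D20 included. The 2 that were more than 2-fold lower there, miR-190-5p and let-7-5p, had their lowest value of the 12 libraries in D10-2. The median GC content was 44.5% for the 16 and 45.5% for the other 89 miRNAs with at least 1000 counts, and the median length was 22 bases in both.

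In 3 genomic clusters, picked after their values were seen, neighbours had unlike levels in D10-2. On linkage group 4, miR-305-5p (11143351 to 11143440) was at 3143 CPM there, while miR-275-3p (11143118 to 11143217) was at 6810 CPM in D10-2 against 6462 and 8704 CPM in D10-1 and D10-3. On linkage group 15, miR-306-5p (7426701 to 7426827) was at 6951 CPM in D10-2 against 1273 and 1586 CPM, while miR-79-3p (7426925 to 7427024) was at 50.8 CPM against 34.5 and 65.2 CPM. On linkage group 5, miR-996-3p (11450180 to 11450270) was at 307 CPM against 73.6 and 93.1 CPM, while miR-279a-3p (11449951 to 11450050) was at 2606 CPM against 2204 and 2894 CPM. In each of these pairs 1 member was high in D10-2 and the other lay within the range of the group. Other clusters were alike in D10-2: the log2 ratios to the median of the other 5 libraries were 0.46, 0.91 and 0.95 for miR-12-5p, miR-283-5p and miR-3477-5p, and -1.18, -0.55 and -0.25 for let-7-5p, miR-125-5p and miR-100-5p. The pairs miR-275-3p with miR-306-5p and miR-279a-3p with miR-996-3p share a seed, and in these pairs the high level was not shared. By the same log2 ratio, miR-279c-3p and miR-279d-3p, which also have the seed of miR-996-3p, were at 0.72 and 0.23. The ratio of miR-996-3p was 1.73.

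The groups of miRNAs listed by role had few members under an unadjusted p of 0.05, set against 4.93% higher and 3.29% lower over all 365 and a median log2 fold change of 0.13. In the let-7 complex, whose members time development under ecdysone in the fly and lie within 1 stretch of linkage group 8, 0 of 3 passed. miR-125-5p (0.31 ± 0.19), miR-100-5p (0.20 ± 0.15) and let-7-5p (0.40 ± 0.29) had a median of 0.31, and miR-100-5p turned negative under upper quartile scaling (-0.02). Without D10-2, the lowest library of the 3 D10 for each of them, let-7-5p was at 0.11 and miR-125-5p at 0.17, and the median was 0.16. miR-100-5p was at 0.097 without D10-3. D30 lay above D10 in all libraries for miR-100-5p (9114, 8351 and 8885 CPM against 10035, 9906 and 10282 CPM) and for miR-125-5p (21592, 14798 and 19977 CPM against 25602, 21710 and 22692 CPM). Of the cluster of miR-317, miR-277 and miR-34, 0 of 3 passed, with log2 fold changes of 0.40 ± 0.19 for miR-317-3p, -0.15 ± 0.17 for miR-277-3p, which acts on branched-chain amino acid breakdown in the fly, and 0.39 ± 0.22 for miR-34-5p, which bears on brain ageing in the fly. Without D30-1 miR-34-5p was at 0.17.

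In the neuronal list 1 of 8 was higher (miR-932-5p) and 1 lower (miR-9a-5p) with p under 0.05, and the median was -0.16. It was 0.11 without D10-2, so its sign rests on that library. The neuron-specific miR-124-3p was at 19084, 35175 and 20177 CPM at D10 and at 19937, 21490 and 20466 CPM at D30, with log2 fold changes of -0.27 ± 0.24 with D10-2 and 0.07 without it. miR-1000-5p, which restrains a vesicular glutamate transporter in fly neurons, was at 13.3, 46.2 and 16.2 CPM at D10 and 16.4, 14.9 and 18.3 CPM at D30. Both were high in D10-2 alone.

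For miRNAs of photoreceptors and sense organs 0 of 9 passed (median 0.03, and between -0.19 and -0.01 under the other 3 scalings). miR-7-5p and miR-210-3p, both of photoreceptors in the fly, had 0.22 ± 0.20 and 0.31 ± 0.26, and the bristle miRNAs miR-263a-5p and miR-263b-5p had -0.41 ± 0.23 and 0.03 ± 0.16. The latter changed sign under all 3 other scalings. miR-279a-3p, which shapes carbon dioxide sensing neurons in the fly, had 0.11 ± 0.19 (-0.10 under upper quartile scaling), and miR-279d-3p had -0.09 ± 0.23.

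For miR-2, miR-13a, miR-13b and miR-11, which repress pro-apoptotic genes in the fly, and miR-71, whose hairpin lies beside those of miR-13a and miR-13b, 0 of 5 passed and the median was -0.04 (0.04 without D30-1). miR-11-3p had a log2 fold change of 0.19 ± 0.15 (-0.03 under upper quartile scaling), miR-2-3p of -0.04 ± 0.16, miR-13b-3p of -0.05 ± 0.22 and miR-13a-3p of -0.32 ± 0.25. For growth miRNAs 0 of 6 passed, with a median of 0.16 (-0.08 under upper quartile scaling and -0.08 without D30-1). The growth promoter bantam-3p was at 7576, 21248 and 10009.6 CPM at D10 and at 8225, 12253 and 11863 CPM at D30. Its log2 fold change was -0.26 ± 0.35 with D10-2 and 0.29 without it, and miR-315-5p had -0.20 ± 0.19, miR-92c-3p 0.05 ± 0.21 (-0.04 under RLE and -0.16 under upper quartile scaling) and miR-92b-3p 0.27 ± 0.30 (just below 0 under upper quartile scaling).

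The gut, fat body and metabolic list held the most members below the threshold, with 1 of 8 higher (miR-14-3p) and 3 of 8 lower (miR-305-5p, miR-281-3p and miR-375-3p). Its median was -0.28, and -0.03 without D10-2, which was the highest library for 5 of the 8. The fat body miRNA miR-8-3p was at 2227, 3576 and 2639 CPM at D10 and 2128, 2667 and 1581 CPM at D30 (-0.40 ± 0.26, and -0.19 without D10-2). miR-275-3p had a log2 fold change of 0.18 ± 0.20, which was -0.05 under upper quartile scaling, and miR-278-3p, which acts on insulin responsiveness of the fly fat body, had 0.72 ± 0.35. The members thus had no common direction.

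The markers of other tissues also differed in sign. Of the muscle pair, miR-133-3p had a log2 fold change of 0.43 ± 0.24 (0.15 without D30-1) and miR-1-3p of -0.45 ± 0.24. Without D10-2 miR-1-3p was at -0.61 (unadjusted p = 0.0106; edgeR), and without D30-2 at -0.33. Of the trunk miRNAs, miR-10-5p had -0.29 ± 0.21, miR-993-3p 0.11 ± 0.20 (-0.11 under upper quartile scaling) and iab-4-5p -1.84 ± 1.19. For iab-4-5p 38 of the 54 counts were in D10-2, and without it the value was 1.16. Of the predicted miRNAs that the study named as differentially expressed on these samples, m0184-5p had -0.74 ± 0.43 and m0194-5p 1.67 ± 0.95, the second on 0 to 5 counts in each D10 library. With 1 library left out they ranged from -1.20 (without D10-3) to -0.28 (without D10-1) and from 1.11 (without D10-2) to 2.90 (without D10-3).

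**Figure D4:**
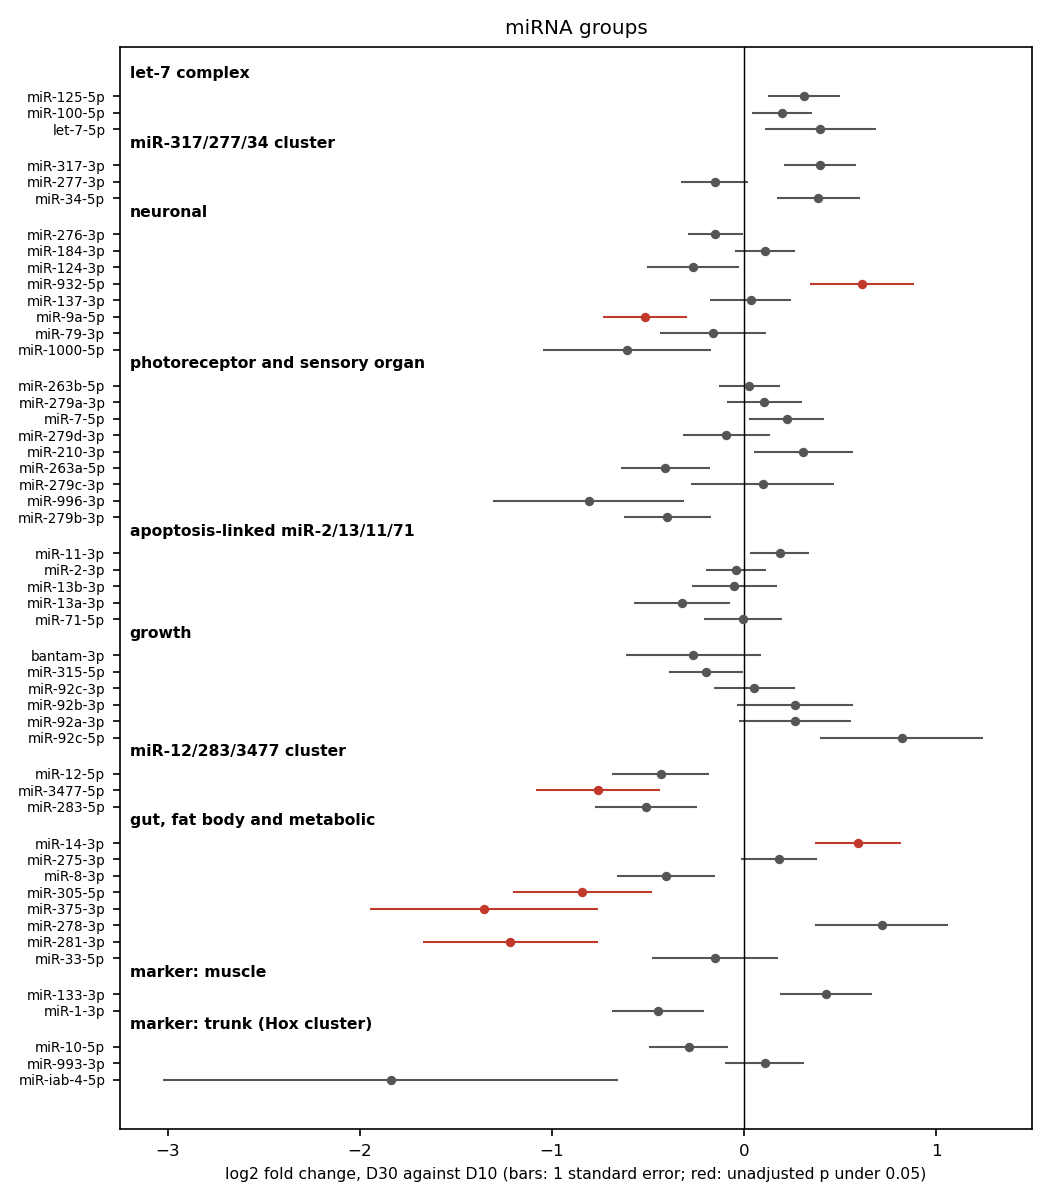
Log2 fold change of D30 against D10 for each tested member of the groups (points, with 1 SE as bars), in order of level within a group; red marks an unadjusted p under 0.05. Members lie on both sides of 0 in every group but the let-7 complex (3 of 3 above) and the cluster of miR-12, miR-283 and miR-3477 (3 of 3 below).

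The arms of 1 hairpin often had unlike values. Both arms were tested for 24 hairpins, and their log2 fold changes had the same sign in 15, with a correlation of 0.337 over hairpins. For the 6 hairpins with at least 100 counts on both arms the correlation was -0.392, with the same sign in 4. These are descriptions, since the rarer arm often rests on few counts. In all, 4 miRNAs had 0 counts in all libraries of 1 day. miR-9883-5p and m0095-3p were at 0 in D30. Their D10 means were 1.45-fold and 1.58-fold the mean of the D30 floors per library. This leaves out the spread within D10 and the dropped single reads, so these folds are not firm lower bounds. m0139-3p and m0220-3p were at 0 in D10, and their D30 means lay below the mean of the D10 floors, so that no fold is given. All 4 passed the filter through 1 day alone, so that they had to differ.

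The libraries outside the comparison show where the 2 days stood. On the scale of all 12 libraries, the D20 mean lay between those of D10 and D30 for 22 of the 30 miRNAs below the unadjusted threshold, and for 38.4% of all 365, a choice that used D10 and D30 and so is given without a test. In CK miR-14-3p was at 28187 CPM ± 2245, in D10 at 21642 ± 4109, in D20 at 28253 ± 6121 and in D30 at 31451 ± 7290 (SD, n = 3 each). The D10 mean was thus the lowest of the 4, and the D30 libraries, from 25381 to 39536 CPM, overlapped the range of CK and D20 and reached above it in D30-1. For miR-6039-5p the D10 mean was also the lowest, with 807 CPM ± 118, 638 ± 44.4, 900 ± 58.0 and 875 ± 127 in the same order (SD, n = 3 each).

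For miR-316-5p the order was another. It was at 27.9 CPM ± 5.95 in CK and 28.1 ± 9.15 in D10, and at 9.37 ± 2.52 in D20 and 12.6 ± 1.48 in D30 (SD, n = 3 each). CK and D10 were alike within their spread, and D20 and D30 were both lower. miR-281-3p and miR-3477-5p had D10 as the highest group and CK as the lowest. miR-281-3p was at 19.9 CPM ± 3.14 in CK, with group means of 73.3 ± 36.5 at D10, 31.8 ± 10.9 at D20 and 30.4 ± 15.05 at D30. miR-3477-5p was at 922 CPM ± 8.46, 1988 ± 580, 1067 ± 207 and 1128 ± 424 in the same order (SD, n = 3 each).

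**Figure D5:**
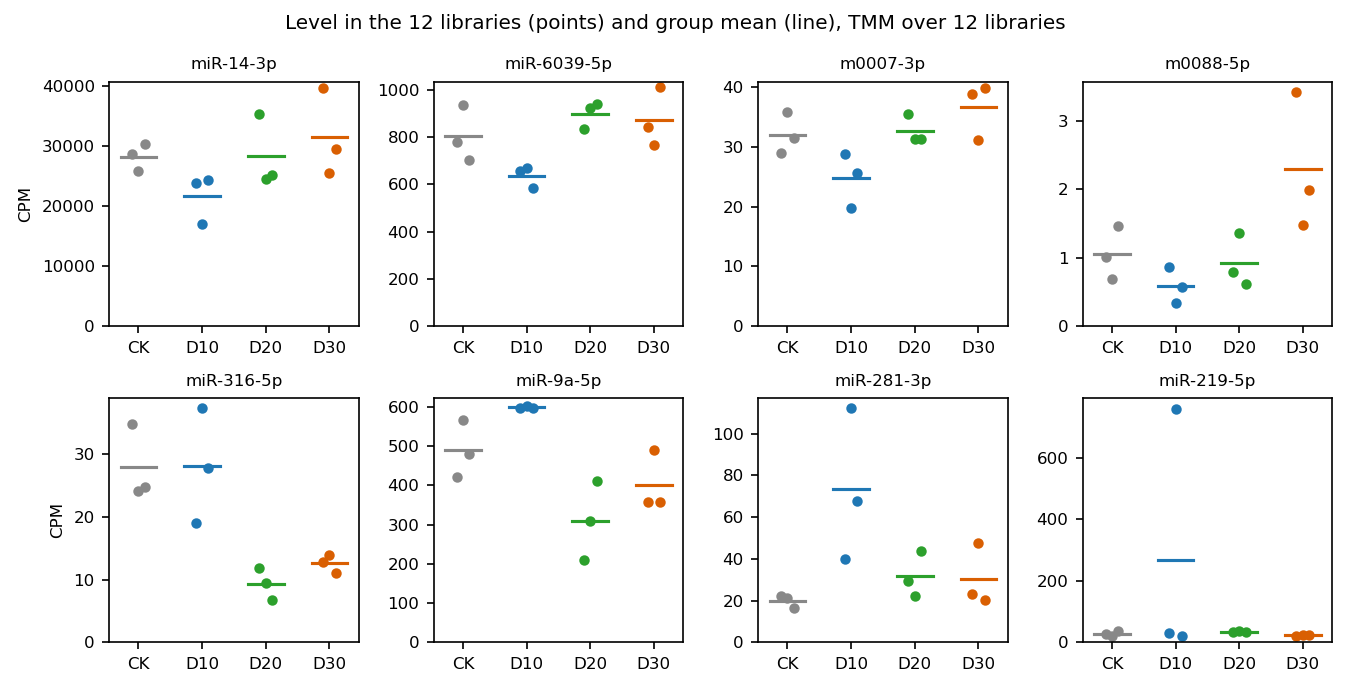
CPM (TMM over the 12 libraries) of 8 miRNAs in each library of CK, D10, D20 and D30 (points; 3 per group) with the group mean as a line; each panel has its own axis from 0. For miR-14-3p, miR-6039-5p, m0007-3p and m0088-5p the D10 mean is the lowest of the 4, miR-316-5p is higher in CK and D10 than in D20 and D30, and the D10 mean of miR-219-5p follows the single D10-2 point.

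The share of high-quality reads, as the study's library table gives it, split the 6 libraries into a lower set (D10-1, D30-1 and D30-2) and a higher set (D10-2, D10-3 and D30-3). Within the lower set, which does not hold D10-2, the log2 ratios of D30 to D10 were 1.41 for m0088-5p, 0.60 for miR-14-3p, 0.47 for miR-6039-5p, -0.33 for miR-316-5p and -0.08 for miR-281-3p. Within the higher set they were 1.83, 0.51, 0.67, -1.57 and -2.13 in the same order. Other higher miRNAs differed more between the sets, such as miR-6041-3p (0.48 and 1.72) and miR-193-3p (1.36 and 0.41). Each set has 1 group with a single library, so these ratios have no replicate check.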

How the data were processed

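Small RNA of pooled forager brains had been sequenced in 12 libraries, of which 3 from D10 and 3 from D30 entered the test. Per the labels and the study's methods, the authors filtered reads by quality, insert and poly(A), dropped tags seen only once, filtered other small RNAs, and matched tags with Bowtie to the honeybee genome and to miRBase, predicting further miRNAs from hairpins. The authors deposited read counts per miRNA without normalization, which were used here, and TPM values, which were not used here.

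Counts were tested with edgeR 4.0.16 in R 4.3.3 (TMM, quasi-likelihood F test, 1 mean per day) on the 365 known or predicted miRNAs with at least 10 counts over the 6 libraries. Benjamini-Hochberg adjustment ran over all of them, and an SE was computed as |log2 fold change| / sqrt(F). Alternatives were limma 3.58.1, DESeq2 1.42.0, other scalings, filters and samples, and each left-out library. No replicate pair was within sampling noise. The floor of 3 counts per library covers counting error only, and not the tags seen once that the study dropped. Tests were tested on simulated data. Figures and joins used Python 3.11.15.

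The comparison, members and lists were chosen with earlier results of these data known. Named are the 10 miRNAs of smallest p in each direction, the other arm of their hairpins, the 5 of highest level, up to 4 members of highest level of each list and the known or predicted miRNAs that the study named; others named were chosen after their values were seen. Predicted miRNAs carry their number (m0088-5p) without the class prefix. Near-identical entries had at most 1 mismatch over at least 18 bases with ends at most 3 bases apart, and hairpins at most 10000 bases apart formed a cluster. Coordinates are of the RefSeq table of Amel_HAv3.1, which located 161 of the 166 known miRNAs tested. Colony links between equal replicate numbers are not given in the labels.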

Additional observations from a re-analysis of the deposited data

Results flagged for a closer look

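The D30-3 library held 225 entries named from other species, with 12836 counts, that were counted in no other D10, D30 or CK library. These entries lie outside the comparison, which used known and predicted honeybee miRNAs only, and they are noted because no control library holds them. The difference was not tested.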

How the results depend on the processing

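The count of 0 miRNAs with an adjusted p under 0.05 held under 21 of 22 alternatives; the exception was the replicate block, with 4 miRNAs, all beyond a log2 fold change of 1: m0088-5p (2.03), miR-281-3p (-1.19), miR-980-3p (-2.92) and miR-375-3p (-1.52), with 36 under an unadjusted p of 0.05. The deviations of libraries of equal number correlated at 0.164, 0.329 and -0.159, and D10-1 correlated best with D30-3 (0.342). With 3 libraries per day these correlations cannot decide whether equal numbers are 1 colony, which the labels do not say. The block is therefore neither preferred nor set aside on their account. The count of 30 under an unadjusted p of 0.05 was 49 in a fit of all 12 libraries, 19 with all listed entries, 12 with the read quality class as a term, and 12 to 39 with 1 library left out (12 without D30-1, 14 without D30-3).

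Signs of named log2 fold changes differed from those reported in 55 of 1252 cases, 44 of them where the value was within its SE. The values were miR-263b-5p -0.067 and miR-92c-3p -0.043 with RLE, miR-263b-5p -0.067 and miR-92c-3p -0.043 with DESeq2, and miR-263b-5p -0.0082 with library size alone. With upper quartile scaling they were miR-2796-3p -0.097, miR-184-3p -0.087, miR-100-5p -0.015, miR-263b-5p -0.19, miR-279a-3p -0.100, miR-11-3p -0.031, miR-92c-3p -0.16, miR-92b-3p -0.0034, miR-275-3p -0.051 and miR-993-3p -0.11. A minimum of 1 count gave miR-263b-5p -0.057 and miR-92c-3p -0.030, and one of 100 counts gave miR-184-3p -0.00023, miR-263b-5p -0.084, miR-279a-3p -0.0023, miR-92c-3p -0.057 and miR-993-3p -0.0023. All listed entries gave miR-263b-5p -0.068 and miR-92c-3p -0.044, and all 12 libraries miR-263b-5p -0.032 and miR-92c-3p -0.0042. limma-voom gave miR-iab-4-5p 0.19, the class term bantam-3p 0.018, and near-identical entries summed (chosen after seeing the data) miR-263b-5p -0.012. The causes were not tested.

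With 1 library left out, the values ranged from -0.036 to 0.27 for miR-2796-3p, -0.063 to 0.19 for miR-184-3p, -0.50 to 0.072 for miR-124-3p, -0.048 to 0.063 for miR-263b-5p, -0.0084 to 0.17 for miR-279a-3p, -0.27 to 0.029 for miR-279d-3p, -0.14 to 0.015 for miR-2-3p, -0.21 to 0.16 for miR-13b-3p, -0.54 to 0.29 for bantam-3p, -0.055 to 0.070 for miR-92c-3p, -0.12 to 0.47 for miR-92b-3p and -2.45 to 1.16 for miR-iab-4-5p. Without both D10-2 and D30-1, chosen after seeing the data, 27 of the 30 kept their sign, and values of other sign were miR-219-5p 0.030, miR-980-3p 0.021, miR-981-3p 0.023, miR-124-3p 0.096, miR-263b-5p -0.047, miR-13a-3p 0.063, bantam-3p 0.46, miR-92c-3p -0.051, miR-92b-3p -0.20 and miR-iab-4-5p 1.03. SE had a median of 0.24 with at least 1000 counts and 0.96 with under 100, so small differences of rare miRNAs were not detectable at this depth.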
